A study of Homo sapiens with 6 samples.

Results

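Desmosomes were followed here through the transcripts of 10 genes for their cadherins and plaque proteins, chosen by gene symbol, of the 21462 genes in the deposited table: the desmocollins DSC2 and DSC3, the desmogleins DSG2 and DSG3, the plakophilins PKP1, PKP2 and PKP3, plakoglobin (JUP), desmoplakin (DSP) and PERP. All 10 passed the filter on low counts. The libraries came from HO-1-N-1, a cell line of human oral squamous cell carcinoma, grown in DMEM with fetal bovine serum. In 3 libraries (Sam68 siRNA replicates 1, 2 and 3) the cells had been transfected with an siRNA against Sam68, and in the other 3 (control siRNA replicates 1, 3 and 5) with a control siRNA, all with the HilyMax lipid reagent. Sam68, the product of KHDRBS1, binds RNA and acts on splicing and other steps of RNA metabolism. The study thus rests on transient knockdown in 1 cell line. The sources used here give neither the siRNA sequences nor the time of harvest, and nothing in them says that the libraries stem from separate cultures. A p-value here therefore reflects the spread among these 6 libraries alone, and that spread may be technical.

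Desmosomes are button-like junctions that tie neighbouring epithelial cells together and anchor their keratin filaments. Desmogleins and desmocollins span the membrane and bind each other in the gap between cells. Inside the cell, plakoglobin and the plakophilins sit on the cadherin tails, and desmoplakin links this plaque to keratin. In stratified squamous epithelium such as the oral mucosa, DSG3 and DSC3 belong to the deeper, proliferating layers, DSG1 and DSC1 to the upper, differentiating layers, and DSG2 and DSC2 are also made in simple epithelia.

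Knockdown of the target was deep in every library: KHDRBS1 stood at 28.9, 32.9 and 31.4 TPM (a level corrected for transcript length and library size) in Sam68 siRNA cells, against 248, 228 and 190 TPM in control siRNA cells. Total counts were 16402923 to 17336651 in the Sam68 siRNA libraries and 16099488 to 16798283 in the control siRNA libraries. Markers of squamous epithelium were all present, 10 of 10 at 1 TPM or more in every library, with summed levels of 13546 to 14120 TPM in Sam68 siRNA cells and 12841 to 13568 TPM in control siRNA cells. Fibroblast markers summed to 8.67 to 12.05 TPM in Sam68 siRNA cells and 16.4 to 22.4 TPM in control siRNA cells, with 2 of 7 at 1 TPM or more in every library and PDGFRA at 0 throughout. Their part in the results below was not tested. Among the other cell types checked, 1 of 5 immune and 1 of 4 endothelial markers, and no melanocyte or muscle marker, reached 1 TPM in every library. The immune markers summed to more than the fibroblast markers, 56.6 to 60.3 TPM in Sam68 siRNA cells and 41.8 to 56.8 TPM in control siRNA cells. Control replicate 5 stood apart: mitochondrial transcripts took 2.27% of its counts, against 0.300 to 0.671% in the Sam68 siRNA libraries and 0.158 and 0.216% in the other controls. A list of 12 immediate early genes, the rapid responders to serum and stress, lay in it on average 1.71 log2 units above the mean of the 6 libraries. The changes of the desmosomal genes are therefore also given without it.

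Of the 10 desmosomal genes, 5 were lower in Sam68 siRNA cells, namely DSC2, DSG3, DSG2, PKP2 and JUP, and none was higher at an adjusted p below 0.05 by edgeR's quasi-likelihood test. Among all genes, 19.1% of the 12351 genes tested were called changed, 9.33% higher and 9.76% lower. At an unadjusted p below 0.05, 2 of the 10 were higher, DSP and PKP1, against 2033 of the 12351 genes tested. DESeq2 called both of these higher beside the same number, 5, lower, against 1038 higher and 1109 lower among all genes tested. The median log2 fold change of the 10 genes was -0.10, against -0.00 over all genes tested. CPM values (counts scaled to library size) of the groups did not overlap for 7 of the 10, 5 lower and 2 higher. Such separation held for 38.0% of all genes tested, 18.7% lower and 19.3% higher. The calls of DSC2, DSG3 and DSG2 stood with any 1 of the 6 libraries left out, and those of PKP2 and JUP did not. The number lower was 3 without control replicate 3 or without any 1 Sam68 siRNA library, and 4 without control replicate 5, when PKP1 was called higher. In the authors' deposited table the FDR was 4.86e-18 for DSG3, 5.37e-10 for DSC2, 0.00263 for PKP2, 0.0305 for DSG2 and 0.413 for JUP. It was above 0.05 for every gene that edgeR did not call. In bulk RNA, fewer cells expressing a gene and less of its RNA per cell cannot be told apart.

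**Figure D1:**
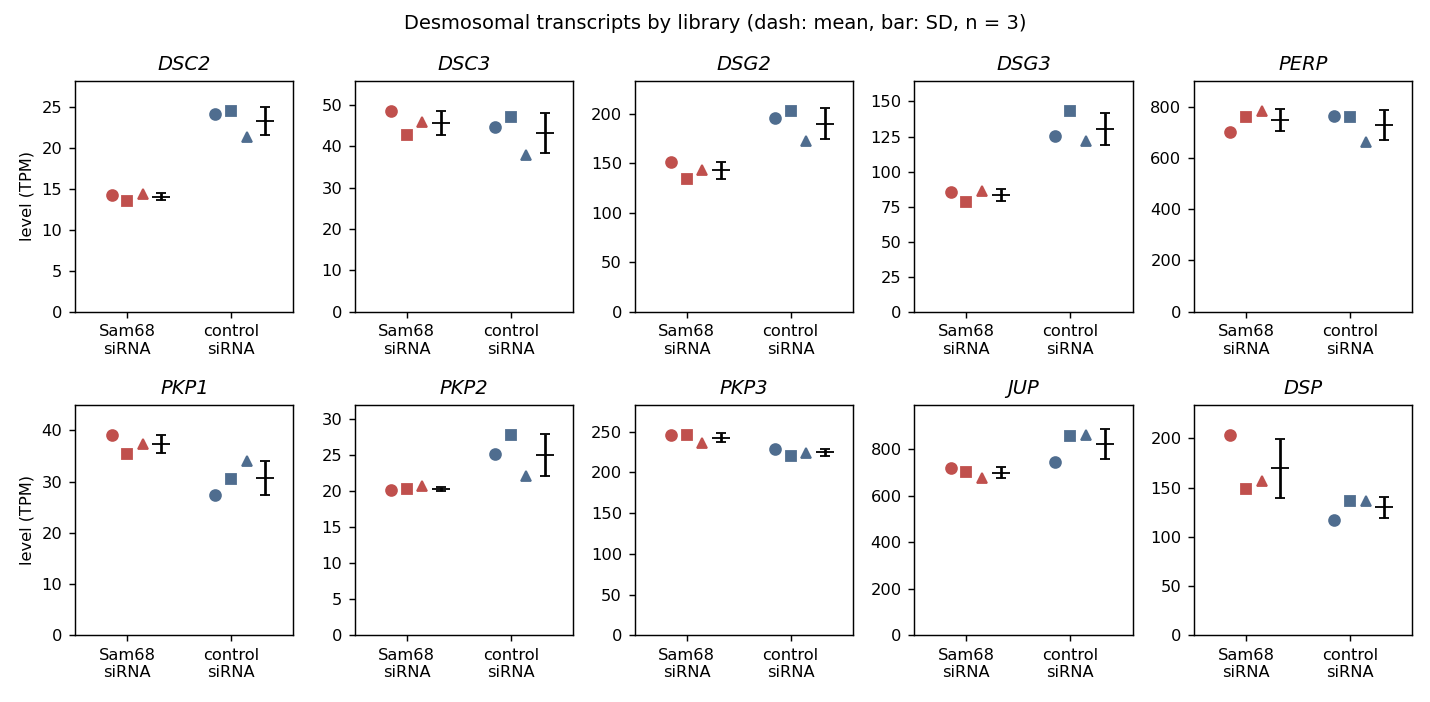
Level of each desmosomal transcript in TPM (vertical axes, from 0) in the 3 Sam68 siRNA libraries (red, left) and the 3 control siRNA libraries (blue, right), with circle, square and triangle for the libraries in the order of their numbers, and the mean and SD beside them. DSC2, DSG2 and DSG3 lie lower in every Sam68 siRNA library than in any control library, and the levels of DSC3 and PERP overlap.

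The results turn on 4 cadherin genes that lie in 1 cluster, of which 3 fell and 1 did not. Their promoters are shown because the genes share a neighbourhood and yet differed in response. Each window runs from 250 bases before to 50 bases after the RefSeq start site, on assembly GRCh38.p14, and is printed 5′ to 3′ along the gene's own strand. Capitals mark matches, on either strand, to any of 7 motifs. These were TGANTCA, the AP-1 consensus, CACCTG, an E-box bound by SNAI and ZEB repressors, GGGCGG, the GC box, and AACNNGTT, the grainyhead consensus, together with CCAAT, known as the CCAAT box, TATAAA, the TATA box, and TTGNGCAA, the palindrome of C/EBP factors.
DSC2 (fell; chr18:31102372-31102671, minus strand): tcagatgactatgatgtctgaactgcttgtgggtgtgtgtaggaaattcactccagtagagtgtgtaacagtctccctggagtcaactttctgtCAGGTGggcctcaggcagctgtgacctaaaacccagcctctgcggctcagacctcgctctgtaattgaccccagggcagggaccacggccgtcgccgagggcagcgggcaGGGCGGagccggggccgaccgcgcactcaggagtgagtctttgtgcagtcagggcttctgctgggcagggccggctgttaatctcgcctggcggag
DSG3 (fell; chr18:31447491-31447790, plus strand): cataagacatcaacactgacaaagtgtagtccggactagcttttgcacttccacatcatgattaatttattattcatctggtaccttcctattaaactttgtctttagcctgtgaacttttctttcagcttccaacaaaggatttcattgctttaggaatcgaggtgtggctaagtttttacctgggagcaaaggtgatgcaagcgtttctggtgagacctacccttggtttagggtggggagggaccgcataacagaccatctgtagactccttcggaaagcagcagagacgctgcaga
DSG2 (fell; chr18:31497927-31498226, plus strand): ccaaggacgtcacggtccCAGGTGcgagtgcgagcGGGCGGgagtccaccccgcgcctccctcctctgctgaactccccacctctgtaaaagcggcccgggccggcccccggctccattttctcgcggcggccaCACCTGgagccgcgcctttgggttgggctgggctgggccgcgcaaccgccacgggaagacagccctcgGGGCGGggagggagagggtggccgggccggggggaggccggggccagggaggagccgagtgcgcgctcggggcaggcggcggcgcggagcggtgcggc
DSC3 (not called; chr18:31042693-31042992, minus strand): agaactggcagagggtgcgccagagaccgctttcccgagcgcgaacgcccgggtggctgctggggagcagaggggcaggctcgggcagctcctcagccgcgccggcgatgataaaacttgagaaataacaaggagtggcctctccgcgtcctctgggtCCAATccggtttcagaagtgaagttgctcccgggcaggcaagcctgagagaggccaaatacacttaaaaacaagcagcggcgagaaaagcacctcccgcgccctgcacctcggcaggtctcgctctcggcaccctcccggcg

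No motif was found in all 3 promoters of the cadherins that fell, while those of DSC2 and DSG2 both held CACCTG and GGGCGG. The DSC2 window held 1 CACCTG match, on the opposite strand from -156, and 1 GC box from -46, and was 60.7% G or C. The DSG2 window held 2 CACCTG matches, 2 GC boxes and 76.7% G or C. That of DSG3 held none of the motifs and had 44.0% G or C, against a median of 65.3% over the promoters of 9832 tested genes. The DSC3 window, 63.3% G or C, held a CCAAT match from -92 and no other. Across the 9832 promoters CACCTG was found in 18.7%, GGGCGG in 70.9% and CCAAT in 37.0%. In all, 8 of the 10 desmosomal genes had a window in the RefSeq table, and CACCTG was also found in that of DSP, CCAAT in that of JUP and TGANTCA, present in 4.54% of promoters, in that of PERP. GGGCGG was found in 6 of the 8. No window held AACNNGTT, TATAAA or TTGNGCAA, which 2.51%, 5.72% and 1.71% of promoters hold. A match is a description of letters, not evidence of binding.

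DSC2, a desmocollin of both simple and stratified epithelia, fell further than any other of the 10 genes. It stood at 14.2, 13.6 and 14.4 TPM in Sam68 siRNA cells, against 24.1, 24.5 and 21.3 TPM in control siRNA cells. The groups were far apart relative to their spread, with every Sam68 siRNA library below every control. Its log2 fold change was -0.73 (SE 0.06, edgeR adjusted p = 4.40e-05), or 39.9% lower, and -0.76 without control replicate 5. Only 2.23% of all genes tested had a lower fold change. The read counts behind it were 1009 to 1018 per library in Sam68 siRNA cells and 1517 to 1718 in control siRNA cells.

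DSC3, the desmocollin of the deeper layers and the nearest neighbour of DSC2 in the genome, was not called. Its levels were 48.6, 42.7 and 45.8 TPM in Sam68 siRNA cells, against 44.8, 47.1 and 37.9 TPM in control siRNA cells. The groups overlapped. The log2 fold change was 0.08 (SE 0.07, edgeR adjusted p = 0.474), with a 95% interval of -0.07 to 0.22, and 0.02 without control replicate 5. Since the 2 desmocollins were measured in the same libraries, their ratio could be set side by side. DSC2 made up 22.6, 24.1 and 23.9% of desmocollin TPM in Sam68 siRNA cells, against 35.0, 34.2 and 36.0% in control siRNA cells. The log2 ratio of DSC2 to DSC3 differed by -0.81 between the groups without overlap, at an exact two-sided permutation p of 0.1, the smallest that 3 against 3 libraries can give.

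DSG3, the main desmoglein of basal oral keratinocytes and the target of autoantibodies in pemphigus vulgaris, fell as well. It stood at 85.7, 78.6 and 85.8 TPM in Sam68 siRNA cells, against 125, 143 and 122 TPM in control siRNA cells. No library of one group reached the other group's range. The log2 fold change was -0.65 (SE 0.06, edgeR adjusted p = 6.95e-05), or 36.2% lower, and -0.66 without control replicate 5.

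DSG2, the desmoglein found in all desmosome-bearing tissues, was the most abundant cadherin of the 4 in every library. It stood at 152, 134 and 144 TPM in Sam68 siRNA cells, against 196, 203 and 172 TPM in control siRNA cells. Again the groups did not overlap, though control replicate 5 lay nearest to the Sam68 siRNA libraries. The log2 fold change was -0.42 (SE 0.06, edgeR adjusted p = 0.000881), or 25.1% lower, and -0.45 without control replicate 5. The antisense gene DSG2-AS1 shares 171 exonic bases with DSG2 in GENCODE 29, and since nothing says whether the counting used strand, reads from that stretch cannot be told apart. The log2 ratio of DSG2 to DSG3 was 0.23 higher in Sam68 siRNA cells, again without overlap (exact two-sided permutation p = 0.1).

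The cadherin genes lie side by side on chromosome 18, in a span of 559.6 kb that holds 7 genes in the deposited table (build hg38). From one end stand DSC3 (chr18:30989365-31042815), DSC2 (chr18:31058840-31102522) and DSC1 on the minus strand, then DSG1, DSG4, DSG3 (chr18:31447741-31478702) and DSG2 (chr18:31498177-31549008) on the plus strand. The genes that fell thus lay at both sides of the cluster, with DSC3, which was not called, at its outer end. DSC1, DSG1 and DSG4, which mark the upper epithelial layers and the hair follicle, were near or at 0 reads. DSC1 had 1, 2 and 3 reads in Sam68 siRNA libraries, against 1, 6 and 0 in control libraries. DSG1 had 0, 1 and 2 reads in Sam68 siRNA libraries, against 2, 2 and 0 in control libraries, and DSG4 had 0 in all 6. At this depth 3 reads correspond to 0.173 to 0.186 CPM, and no change of these 3 genes could be detected.

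**Figure D2:**
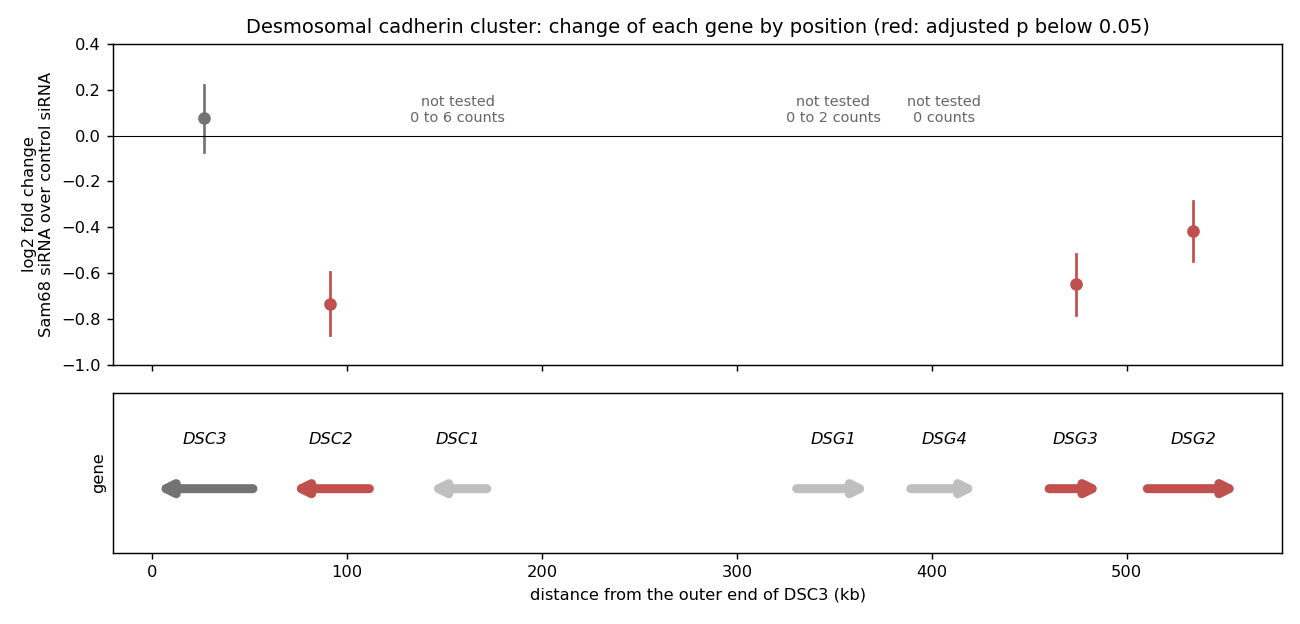
Log2 fold change of each gene, Sam68 siRNA over control siRNA, with its 95% interval (upper panel) along the desmosomal cadherin cluster, drawn to scale as distance in kb from the outer end of DSC3 with arrows for the direction of transcription (lower panel). DSC2, DSG3 and DSG2 (red) lie below 0, DSC3 (dark grey) does not, and DSC1, DSG1 and DSG4 (light grey) had too few reads to test.

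Summed over the 4 genes, cadherin transcripts came to 300, 269 and 290 TPM in Sam68 siRNA cells, against 390, 417 and 353 TPM in control siRNA cells. The mean was 286 ± 15.9 TPM in Sam68 siRNA cells and 387 ± 32.2 TPM in control siRNA cells (SD, n = 3 each), 26.1% lower, and most of that difference in TPM came from the desmogleins. The desmogleins together averaged 226 ± 12.6 TPM in Sam68 siRNA cells and 320 ± 25.9 TPM in control siRNA cells. Desmocollins together averaged 59.8 ± 3.27 TPM in Sam68 siRNA cells and 66.6 ± 6.50 TPM in control siRNA cells, and these sums overlapped.

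The mixture of cadherins differed between the groups as well as the total. DSC3 supplied 15.97 ± 0.191% of cadherin TPM in Sam68 siRNA cells and 11.16 ± 0.392% in control siRNA cells (SD, n = 3 each). DSG3 supplied 29.1 ± 0.541% in Sam68 siRNA cells and 33.7 ± 1.30% in control siRNA cells, and DSC2 4.92 ± 0.164% in Sam68 siRNA cells and 6.03 ± 0.159% in control siRNA cells. The share of DSG2 overlapped between the groups, at 49.98 ± 0.497% in Sam68 siRNA cells and 49.15 ± 0.888% in control siRNA cells. The shares sum to a fixed total, so a larger share of DSC3 does not by itself show a higher level of that gene.

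**Figure D3:**
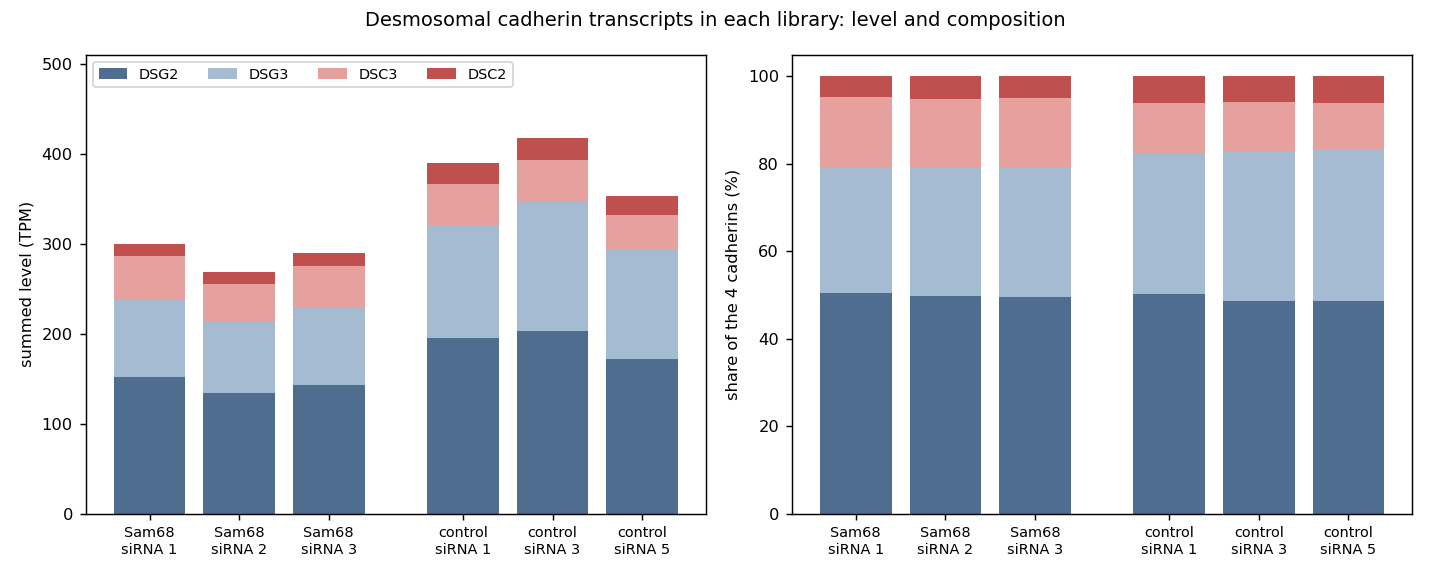
Cadherin transcripts in each library, Sam68 siRNA libraries at the left of each panel and control siRNA libraries at the right: summed TPM (left panel) and each gene's percent of that sum (right panel). The stacks of the Sam68 siRNA libraries reach 269 to 300 TPM, below the 353 to 417 TPM of the controls, and the DSC3 band is wider in them.

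Among the plaque genes the called changes were smaller than those of the cadherins. PKP2 (chr12:32790745-32896840), the plakophilin of simple epithelia and heart, stood at 20.1, 20.3 and 20.7 TPM in Sam68 siRNA cells, against 25.1, 27.8 and 22.1 TPM in control siRNA cells. The Sam68 siRNA libraries lay close together, below a wider spread of controls. PKP2 fell by 0.30 on the log2 scale (SE 0.08, edgeR adjusted p = 0.0183). That call was lost without control replicate 3 (adjusted p = 0.0721) and without Sam68 siRNA replicate 1 (0.0617), 2 (0.0562) or 3 (0.0601). It remained without control replicate 5, at -0.35 (adjusted p = 0.00356).

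PKP1 (chr1:201283452-201332993), the plakophilin of stratified epithelia, was higher in each Sam68 siRNA library but was not called. It stood at 39.1, 35.5 and 37.4 TPM in Sam68 siRNA cells, against 27.3, 30.6 and 34.1 TPM in control siRNA cells. Control replicate 5 lay nearest to the Sam68 siRNA libraries. The log2 fold change was 0.27 (SE 0.09) and missed the threshold at an edgeR adjusted p of 0.0650. Without control replicate 5 it was 0.39 (adjusted p = 0.00130), and with any other library left out the adjusted p lay between 0.141 and 0.177.

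PKP3 (chr11:392614-404908), which is made throughout the epithelial layers, was by far the most abundant plakophilin. Its levels were 246, 246 and 236 TPM in Sam68 siRNA cells, against 229, 220 and 224 TPM in control siRNA cells. TPM of the groups did not overlap, but the difference was small and CPM overlapped (log2 fold change 0.11, SE 0.06, edgeR adjusted p = 0.225). The 3 plakophilins summed to 301 ± 5.61 TPM in Sam68 siRNA cells and 280 ± 1.78 TPM in control siRNA cells (SD, n = 3 each). PKP2 made up 6.78 ± 0.220% of that sum in Sam68 siRNA cells and 8.92 ± 1.07% in control siRNA cells. The log2 ratio of PKP1 to PKP2 was 0.58 higher in Sam68 siRNA cells and that of PKP2 to PKP3 differed by -0.40, both without overlap at the smallest possible exact permutation p of 0.1. That of PKP1 to PKP3 differed by 0.17 with overlap (exact permutation p = 0.2), and by 0.08 without control replicate 1. Over the 7 pairs of related genes compared, 6 did not overlap. Each of these 6 holds a gene called by edgeR, and genes recur among the pairs. The count is thus not separate from the changes of single genes. How often other gene pairs separate was not computed, while CPM of single genes did so for 38.0% of all genes tested. Adjustment over the 7 gave a permutation p of 0.117 for each of the 6, with no pair able to pass 0.05 at this sample size.

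JUP (chr17:41754604-41786931), plakoglobin, the catenin that binds the cadherin tails in desmosomes and also in adherens junctions, was lower by a small margin. It stood at 719, 701 and 675 TPM in Sam68 siRNA cells, against 746, 857 and 861 TPM in control siRNA cells. The gap between the groups, from 719 to 746 TPM, was narrower than the spread within the controls, whose replicate 1 lay nearest. JUP fell by 0.24 on the log2 scale (SE 0.07, edgeR adjusted p = 0.0338), but only leaving out control replicate 1 kept that call (-0.32, adjusted p = 0.00269). The adjusted p was 0.103 without control replicate 3 and 0.0548 without control replicate 5. It was 0.0807, 0.0857 and 0.132 without Sam68 siRNA replicate 1, 2 and 3. Its level per unit of cadherin transcript, a ratio of TPM values, was 2.44 ± 0.144 in Sam68 siRNA cells and 2.13 ± 0.271 in control siRNA cells (SD, n = 3 each), with overlap.

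DSP (chr6:7541617-7586714), desmoplakin, the link to keratin filaments, varied most among the Sam68 siRNA libraries relative to its mean. It stood at 204, 148 and 157 TPM in Sam68 siRNA cells, against 118, 136 and 136 TPM in control siRNA cells. The groups did not overlap, and Sam68 siRNA replicate 1 lay well above replicates 2 and 3. The log2 fold change was 0.37 (SE 0.12) at an edgeR adjusted p of 0.0604, and 0.23 without Sam68 siRNA replicate 1 (adjusted p = 0.107). Without control replicate 5 it was 0.45 (adjusted p = 0.116). DESeq2 gave an adjusted p of 0.00291. Relative to cadherin transcripts, DSP stood at 0.591 ± 0.0761 in Sam68 siRNA cells and 0.338 ± 0.0435 in control siRNA cells (ratio of TPM, SD, n = 3 each), without overlap. The log2 ratio of DSP to JUP was 0.61 higher in Sam68 siRNA cells (exact two-sided permutation p = 0.1).

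PERP (chr6:138088505-138107419), a tetraspan membrane protein of desmosomes and a target of p63, was not called. It stood at 703, 760 and 783 TPM in Sam68 siRNA cells, against 765, 761 and 661 TPM in control siRNA cells. The groups overlapped, with a log2 fold change of 0.03 (SE 0.06, edgeR adjusted p = 0.747) and a 95% interval of -0.10 to 0.17. Its sign was not stable: the value was -0.0018 without Sam68 siRNA replicate 3 and -0.0011 without control replicate 5.

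**Figure D4:**
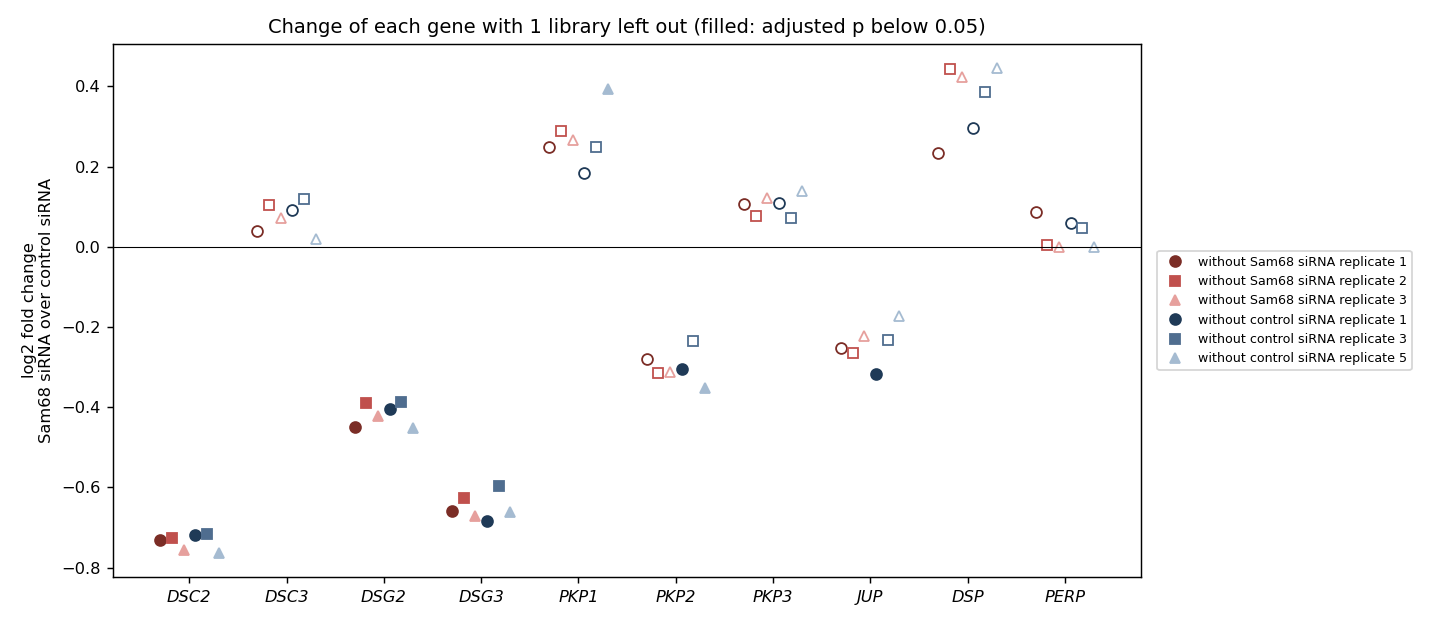
Log2 fold change of each desmosomal gene, Sam68 siRNA over control siRNA, with each of the 6 libraries left out in turn (red, a Sam68 siRNA library left out; blue, a control siRNA library left out), filled where the edgeR adjusted p was below 0.05. DSC2, DSG2 and DSG3 are filled 6 times of 6, PKP2 2 times, JUP and PKP1 1 time each, and PERP straddles 0.

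Ordered by TPM, the membrane protein PERP and plakoglobin led and DSC2 came last. The last place of DSC2 depends on the division by transcript length. In CPM, DSC2 averaged 99.6 in control siRNA cells, above PKP1 (57.4) and PKP2 (50.4). It averaged 59.9 CPM in Sam68 siRNA cells, above PKP2 (41.0) but below PKP1 (69.3). In Sam68 siRNA cells the order of mean TPM was PERP, JUP, PKP3, DSP, DSG2, DSG3, DSC3, PKP1, PKP2 and DSC2. PERP and JUP overlapped in their ranges, as did DSP and DSG2, and the remaining neighbours did not. In control siRNA cells the order was JUP, PERP, PKP3, DSG2, DSG3, DSP, DSC3, PKP1, PKP2 and DSC2. There JUP and PERP overlapped, as did DSG3 and DSP, PKP1 and PKP2, and PKP2 and DSC2. RPKM, which also divides by length, ranks the genes of a library as TPM does, so it gave no separate check of the order. Together the 10 transcripts took 0.218 to 0.223% of all TPM in Sam68 siRNA cells and 0.229 to 0.245% in control siRNA cells.

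Patterns over the 6 libraries were compared by the root mean square difference of log2 CPM, each gene centred on its own mean, over 10499 genes of at least 5 CPM. For DSC2 the closest genes were CLIP4 (0.0496) and DDAH1 (0.0511), with DSG3 the 8th closest (0.0690). For DSG3 they were DENND2C (0.0394) and ABAT (0.0480), and for DSG2 CRIM1 (0.0267) and HPS5 (0.0272). PKP2 lay closest to EFNA1 (0.0276) and RNF141 (0.0307), and JUP to WFS1 (0.0285) and MED29 (0.0298). In these measures DSC2 and DSG3 were near each other, whereas DSC3 was only the 6407th closest gene to DSC2 (0.408). The measure takes in the difference between the groups, so genes with like fold changes lie close. CLIP4 and DDAH1 had log2 fold changes of -0.71 and -0.76, beside -0.73 for DSC2. The closest genes are therefore not separate from the fold changes given above. These are descriptions over 6 libraries that share depth and group, without a test.

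Sam68 is known to bind U- and A-rich RNA, with UAAA as the core of its site, so TAAA was counted in the 3′ UTRs of GENCODE 29, 1 transcript per gene, over 11954 tested genes. The 4 cadherins lay above the median of 8.03 per kb over all genes, whether or not they fell. DSG3 had 14.3 per kb, DSC3 13.0, DSC2 11.8 and DSG2 11.5. These densities exceeded those of 72.2% (DSG2) to 85.6% (DSG3) of genes. DSC2 also has a long 3′ UTR in this annotation, 9175 bases, longer than that of 98.7% of genes. Among the plaque genes, PKP2, which was lower, had 14.3 per kb, and JUP, also lower, had 1.75. DSP had 13.1 and PERP 11.9, while PKP1 (2.37) and PKP3 (2.95) lay below the median. The 3′ UTRs of JUP, PKP1 and PKP3 were 58.51, 53.35 and 62.54% G or C, against a median of 42.22% over all genes. The remaining genes lay between 32.66% (DSP) and 38.57% (DSG3). High and low densities of TAAA were found both among the 5 called genes and among the 5 not called. Their bearing on the changes was not tested, and no binding was measured here.

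Of 2 heptamers singled out in an earlier look at these data, ACTGATT was in the 3′ UTR of none of the 10 genes (13.8% of all genes) and GCAGTAC was in that of DSP alone (4.68% of all genes). The DSP site is printed because it is the single such match, with the heptamer in capitals, from exon 24 of 24 at chr6:7586063-7586091 on the plus strand of hg38.
DSP site: atcttaaataaGCAGTACacttggatgca
DSP itself was not called by edgeR, as given above, and since the heptamers were chosen on these data, nothing is read from the match.

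Other genes of the desmosome were few in these cells. Of 7 further structural genes, only PPL and EVPL passed the filter. PPL, periplakin, a plakin of the cornified envelope that also locates to desmosomes, stood at 99.6, 88.2 and 89.9 TPM in Sam68 siRNA cells, against 128, 128 and 138 TPM in control siRNA cells. It fell by 0.51 on the log2 scale (edgeR adjusted p = 0.000632), with that call in all 6 fits that left out 1 library. EVPL, envoplakin, its partner, was not called (-0.10, adjusted p = 0.525).

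Keratins form the filaments that desmosomes anchor. Of 13 tested, 3 were higher, 10 were not called and none was lower by edgeR, with a median log2 fold change of 0.15, against -0.00 over all genes. The share called was 23.1%, near the 19.1% of all genes tested. At an unadjusted p below 0.05, 1 was lower, and by DESeq2 none was lower and 4 were higher. KRT5, the type II keratin of basal keratinocytes, rose by 0.20 (adjusted p = 0.00692) and was called with any library left out. KRT15 rose by 0.31 (adjusted p = 0.0114) but was not called without Sam68 siRNA replicate 2 (0.0740) or 3 (0.0611). KRT6B, a keratin of activated keratinocytes that has near-identical relatives whose reads may be shared, rose by 0.51 (adjusted p = 0.0124), a call lost without control replicate 1 (0.0674) and without Sam68 siRNA replicate 2 (0.0623). The number higher was 6 without control replicate 5 and 1 without Sam68 siRNA replicate 2, and 1 keratin was lower without control replicate 3.

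Of 22 genes known for the assembly or turnover of desmosomes, 1 was higher, 2 were lower and 19 were not called (median -0.02). The share called was 13.6%, against 19.1% of all genes tested. ERBIN, which in human cells binds desmosomal plaque proteins, fell by 0.39 (edgeR adjusted p = 0.00247). CAV1, caveolin, a membrane coat protein tied to cadherin uptake, fell by 0.25 (adjusted p = 0.00899). Both were called with any library left out. By limma-trend on TPM the number lower was 1 with either pseudocount and 0 with no filter, and the number higher was 0 in all of these. SRC, a tyrosine kinase that acts on junctions, rose by 0.21 (adjusted p = 0.0334) and was called without control replicate 5 but not without any of the other 5 libraries (0.0742 to 0.118). The sheddases ADAM9, ADAM10, ADAM15 and ADAM17 and the receptor EGFR were not called.

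Of 16 transcription factors known to act on desmosome genes, 4 were higher, 1 was lower and 11 were not called (median 0.14). That made 31.2% called, against 19.1% of all genes tested. TP63, the master regulator of stratified epithelium, rose by 0.33 (edgeR adjusted p = 0.0124) but was not called without Sam68 siRNA replicate 3 (0.0726). GRHL1 and KLF5 rose by 0.36 and 0.25 (adjusted p = 0.0311 and 0.0318). Neither was called without Sam68 siRNA replicate 2 or 3 or without control replicate 1, nor was GRHL1 without control replicate 3. The number higher was 2 without control replicate 1, 1 without Sam68 siRNA replicate 2 and 0 without Sam68 siRNA replicate 3. The 1 lower factor, OVOL1 (-0.31, adjusted p = 0.0430), is named because it was the only one, after its value was seen. With 1 library left out it was called only without control replicate 1, and DESeq2 and limma-voom called no factor of the list lower. By limma-trend on TPM the number higher was 2 with a pseudocount of 0.1 and 0 with no filter. The repressors SNAI1, SNAI2 and TWIST1 were not called.

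At the other junctions the calls were mixed. Of 12 adherens junction genes, 2 were higher, 3 lower and 7 not called (median -0.06), or 41.7% called, against 19.1% of all genes tested. The higher ones were NECTIN1, a cell adhesion receptor (0.43, edgeR adjusted p = 0.00150), and CDH3, P-cadherin (0.27, adjusted p = 0.00489), both called with any library left out. The lower ones were CTNNA1 (-0.22) and NECTIN4 (-0.41), with CTNNB1 (-0.20) named after its value was seen. The number lower was 1 without control replicate 3 or Sam68 siRNA replicate 3 and 0 without Sam68 siRNA replicate 1 or 2, and by limma-trend on TPM it was 1 with either pseudocount and 0 with no filter.

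Of 15 tight junction genes, 5 were lower, 10 were not called and none was higher by edgeR, by DESeq2 or at an unadjusted p below 0.05 (median -0.19). By edgeR 33.3% were called, against 19.1% of all genes tested. CGN, cingulin, a cytoplasmic tight junction protein, fell by 0.44 (edgeR adjusted p = 0.00603) and was called with any library left out. CLDN4 and PATJ fell by 0.28 and 0.31, and CLDN1, the fifth by p-value, is named after its value was seen (-0.20). The number lower was 3 without control replicate 3 and 2 without Sam68 siRNA replicate 2 or 3, and by limma-trend on TPM it was 3 with either pseudocount and 1 with no filter.

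Of 9 hemidesmosome genes, which join basal cells to the matrix below, 2 were higher, among them ITGA6 (0.20), and 7 were not called (median 0.04). The share called was 22.2%, near the 19.1% of all genes tested. None was lower by edgeR, and 1 was by DESeq2 and at an unadjusted p below 0.05. The number higher was 1 without control replicate 1 and 0 without control replicate 3 or any 1 Sam68 siRNA library, and 1 gene was lower without Sam68 siRNA replicate 1. By limma-trend on TPM the number higher was 1 with either pseudocount and 0 with no filter. No immediate early gene of 12 was called in either direction by edgeR or DESeq2, and 1 was lower at an unadjusted p below 0.05 (median -0.61). Without control replicate 5, the library in which these genes were high, edgeR called 5 of them lower, and without control replicate 3 it called 1 lower.

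**Figure D5:**
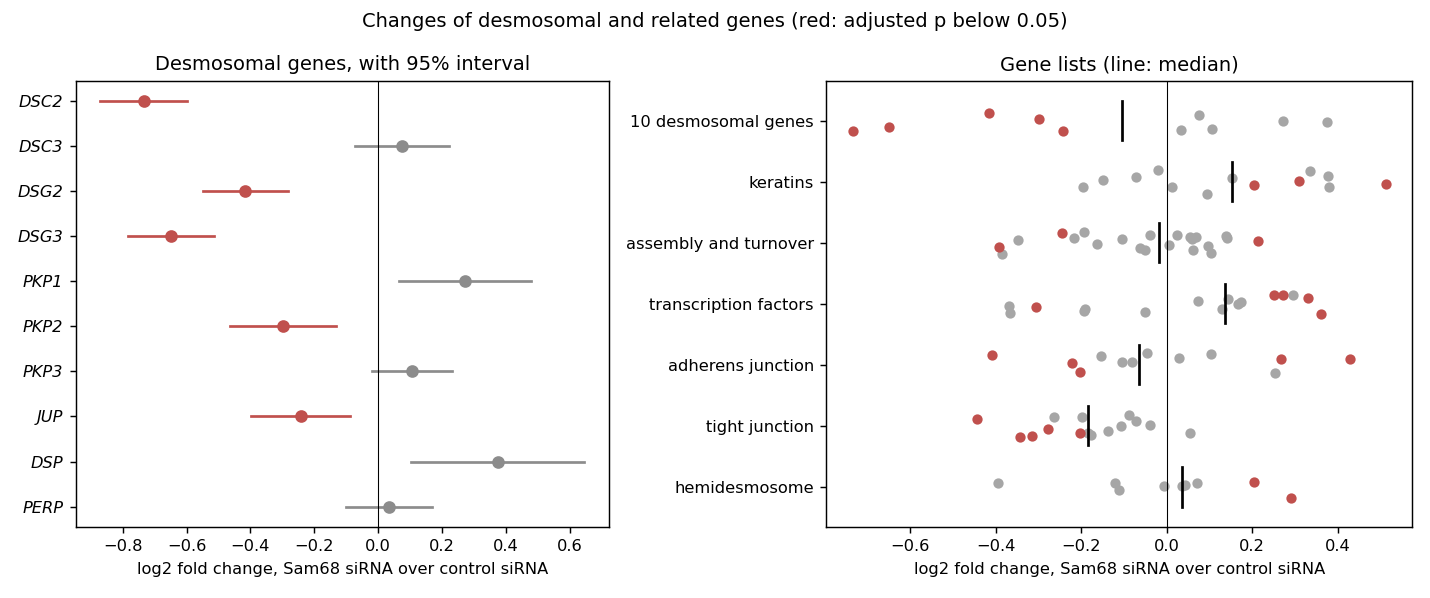
Log2 fold change, Sam68 siRNA over control siRNA, of each of the 10 desmosomal genes with its 95% interval (left panel) and of every tested gene among these 10 and in the lists of keratins, assembly and turnover, transcription factors, adherens junction, tight junction and hemidesmosome, with each median as a line (right panel; the immediate early list is not drawn), red where the edgeR adjusted p was below 0.05. The intervals of DSC2, DSG2 and DSG3 lie wholly below -0.28, and DSC2 and DSG3 are the lowest points drawn at the right.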

How the data were processed

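Poly(A) RNA from HO-1-N-1 cells was sequenced in 6 libraries. Per the file headers, the authors deposited 1 table with raw read counts, TPM, RPKM and a signal headed CPM for each gene and library, together with their own fold changes, log2 fold changes and p-values. Per the submitters' processing notes the genome was hg38. The sources used here name no aligner, counter or strand setting.

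The deposited counts were tested with edgeR 4.0.16 in R 4.3.3: filterByExpr (minimum count 10), TMM scaling, quasi-likelihood F-test with robust estimation, and Benjamini-Hochberg adjustment over 12351 genes at 0.05. Libraries held 16099488 to 17336651 counts. Levels are the authors' deposited TPM, and CPM used here was recomputed from counts, so the deposited signal was not used. The SE is the one implied by the F statistic. Ratios of related genes were compared by exact two-sided permutation of the 6 libraries. Alternatives were DESeq2 1.42.0, limma 3.58.1 (voom, and trend on log2 of the deposited TPM plus 1 or 0.1), other scalings and filters, and each library left out. No 2 libraries agreed within sampling noise.

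The 10 genes and the gene lists were chosen with earlier results of these data known. Genes named from a list are its called genes, up to 4 with the smallest p, and some of these are not reported here. Promoters are from RefSeq, and overlaps and 3′ UTRs from GENCODE 29.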

Additional observations from a re-analysis of the deposited data

How the results depend on the processing

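DSC2, DSG3 and DSG2 were lower and called under all 17 alternatives: -0.76 to -0.69, -0.68 to -0.60 and -0.45 to -0.39 on the log2 scale. DSC3 and PKP3 were called under none. On TPM, limma-trend called 3 of the 10 desmosomal genes, all lower (pseudocount 1, 0.1, or 1 with no filter), with PKP2 at -0.28, -0.29 and -0.28 and JUP at -0.23 in each, and called 1563, 1556 and 973 genes in all, against 2358 by edgeR. DSP was called at 0.37 by DESeq2, limma-voom and edgeR with no robust estimation, and at 0.38 with upper-quartile scaling, and PKP1 at 0.27 by DESeq2, so 2 of the 10 were higher by DESeq2 and 1 by each of the other 3. The causes were not tested.

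Replicate numbers 1 and 3 occur in both groups, but the labels do not tie them, and deviations of same-numbered libraries correlated at -0.07 (number 1) and 0.08 (number 3). With the replicate number as a block, 1046 genes were called. Sam68 siRNA replicate 2 and control replicate 5 have no partner and add nothing to that contrast, so it also rests on fewer libraries, and the 2 effects cannot be told apart. In that fit DSP (0.51) and PKP1 (0.42) were higher and called, making 2 higher, JUP was -0.19 and not called, and PERP turned to -0.029. Genes called lower then numbered 1 in the tight junction list, 0 in the adherens junction list and 0 among transcription factors.

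With 1 library left out, 1112 to 2666 genes were called (1537, 1112 and 1195 without Sam68 siRNA replicate 1, 2 and 3), 3 to 5 of the 10 desmosomal genes, 3 to 5 of them lower and 0 to 1 higher. The log2 fold changes then ranged from 0.23 to 0.45 for DSP, 0.18 to 0.39 for PKP1, -0.35 to -0.24 for PKP2, -0.32 to -0.17 for JUP and -0.0018 to 0.088 for PERP. Differences of the 7 log2 ratios kept their sign with any library left out, though that of PKP1 to PKP3 ranged from 0.08 to 0.25. TMM-scaled CPM in place of TPM could not change them, since transcript length cancels between the groups. With 3 libraries per group, changes as small as those of DSC3, PKP3 and PERP cannot be told from the spread, and an absent call there does not show equal levels.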
